A study of Rattus norvegicus with 30 samples.

Results

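Several steps of glucose and glycogen breakdown are carried out by enzymes that rats make in more than 1 form, each from its own gene. A total of 5 pairs of such genes were followed here, each with 1 isoform known from skeletal muscle and 1 that most other cells make: Hk2 and Hk1 (hexokinase), Pfkm and Pfkp (phosphofructokinase), Eno3 and Eno1 (enolase), Pgam2 and Pgam1 (phosphoglycerate mutase), and Pygm and Pygl (glycogen phosphorylase). The 10 genes were listed by name, with no threshold on their values, at a time when earlier results of these data were known. All 10 were among the 13124 genes of the count table, and all 10 passed the filter on low expression, which kept 12558 genes whose mean CPM (read counts scaled to the size of each library by TMM) reached 3 in 1 or more groups.

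The animals were male Sprague Dawley rats of 3 months, and each tendon was a right plantaris tendon cut free below the myotendinous junction so as to leave muscle and bone behind. In 6 groups the tendons of both legs had been cut through their midsubstance and sutured at once, and the rats then received the hematopoietic prostaglandin D synthase (HPGDS) inhibitor GSK2894631A by gavage 2 times a day at 0, 2 or 6 mg/kg until harvest at 7 or 21 days (7D and 21D). The 0 mg/kg groups had the same surgery and the carrier alone, whereas control rats had neither surgery nor compound, so injury, suture and gavage cannot be told apart in a comparison of the 0 mg/kg groups with control, nor can these and the compound in the other groups. There were 3 control tendons, 5, 4 and 3 tendons at 7D with 0, 2 and 6 mg/kg, and 5 tendons in each 21D group.

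Hexokinase traps glucose in the cell as glucose 6-phosphate, phosphofructokinase commits it to glycolysis, and phosphoglycerate mutase and enolase act on the smaller intermediates further down. Glycogen phosphorylase releases glucose units from glycogen stores, which fast skeletal muscle fibres hold in quantity for contraction. Muscle fibres make PFKM, beta enolase (Eno3), the muscle mutase (Pgam2) and muscle phosphorylase (Pygm) at high levels, whereas tendon fibroblasts, leukocytes and most other cells rely mainly on the general forms.

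Libraries held 12405741 to 49909374 counts, and 23 of 29 listed skeletal muscle markers were in the table. Those 23 genes made up 17.9% to 24.9% of all counts in the control tendons, 0.167% to 1.19% at 7D 0 mg/kg, 0.00677% to 0.00901% at 7D 2 mg/kg and 0.00739% to 0.00969% at 7D 6 mg/kg. At 21D their share was 0.0618% to 7.42% with 0 mg/kg, 1.17% to 3.06% with 2 mg/kg and 0.322% to 9.14% with 6 mg/kg. The labelled tendon carried skeletal muscle transcripts in every group, next to 7 of 8 listed tendon fibroblast markers that were also detected in every group. Replicate 2 of 21D 0 mg/kg stood apart from its group with the lowest muscle share (0.0618%) and the highest share of leukocyte markers of any tendon (1.24%). In tissue of mixed cells, fewer cells of a type and less RNA per cell cannot be told apart.

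Compared to control tendons, the muscle isoforms were lower and the general isoforms higher in repaired tendons. In the quasi-likelihood test of edgeR, adjusted after Benjamini and Hochberg over all 12558 genes, each of the 5 muscle isoforms was lower in each of the 6 repaired groups. The background was broad, since 35.6%, 34% and 33.8% of all genes were lower at 7D with 0, 2 and 6 mg/kg, and 33.7%, 35.3% and 33.3% were lower at 21D. All 5 general isoforms were higher with 0 and 2 mg/kg at 7D and at 21D, where 35.8%, 35.8%, 32.2% and 33.8% of all genes were higher. At 7D 6 mg/kg 4 of 5 were higher (background 34.1%) and at 21D 6 mg/kg 3 of 5 (background 30.8%). The exceptions were Eno1 in both groups, with adjusted p 0.281 and 0.443, and Pgam1 at 21D 6 mg/kg, with adjusted p 0.0965. Each muscle isoform was lower in all 27 repaired tendons than in any of the 3 control tendons, which held for 22.1% of all genes. Hk1, Pfkp, Pgam1 and Pygl were higher in all 27 than in any control tendon, which held for 18.6% of all genes, whereas Eno1 was above the highest control tendon in 15 of 27. Of the genes called in these comparisons 48.0% to 51.3% were higher, which became 74.1% to 77.9% when libraries were scaled by total counts alone, with the median of all genes then at 0.51 to 0.64; no isoform changed direction. The 6 comparisons share the same 3 control tendons and are not independent of each other.

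**Figure D1:**
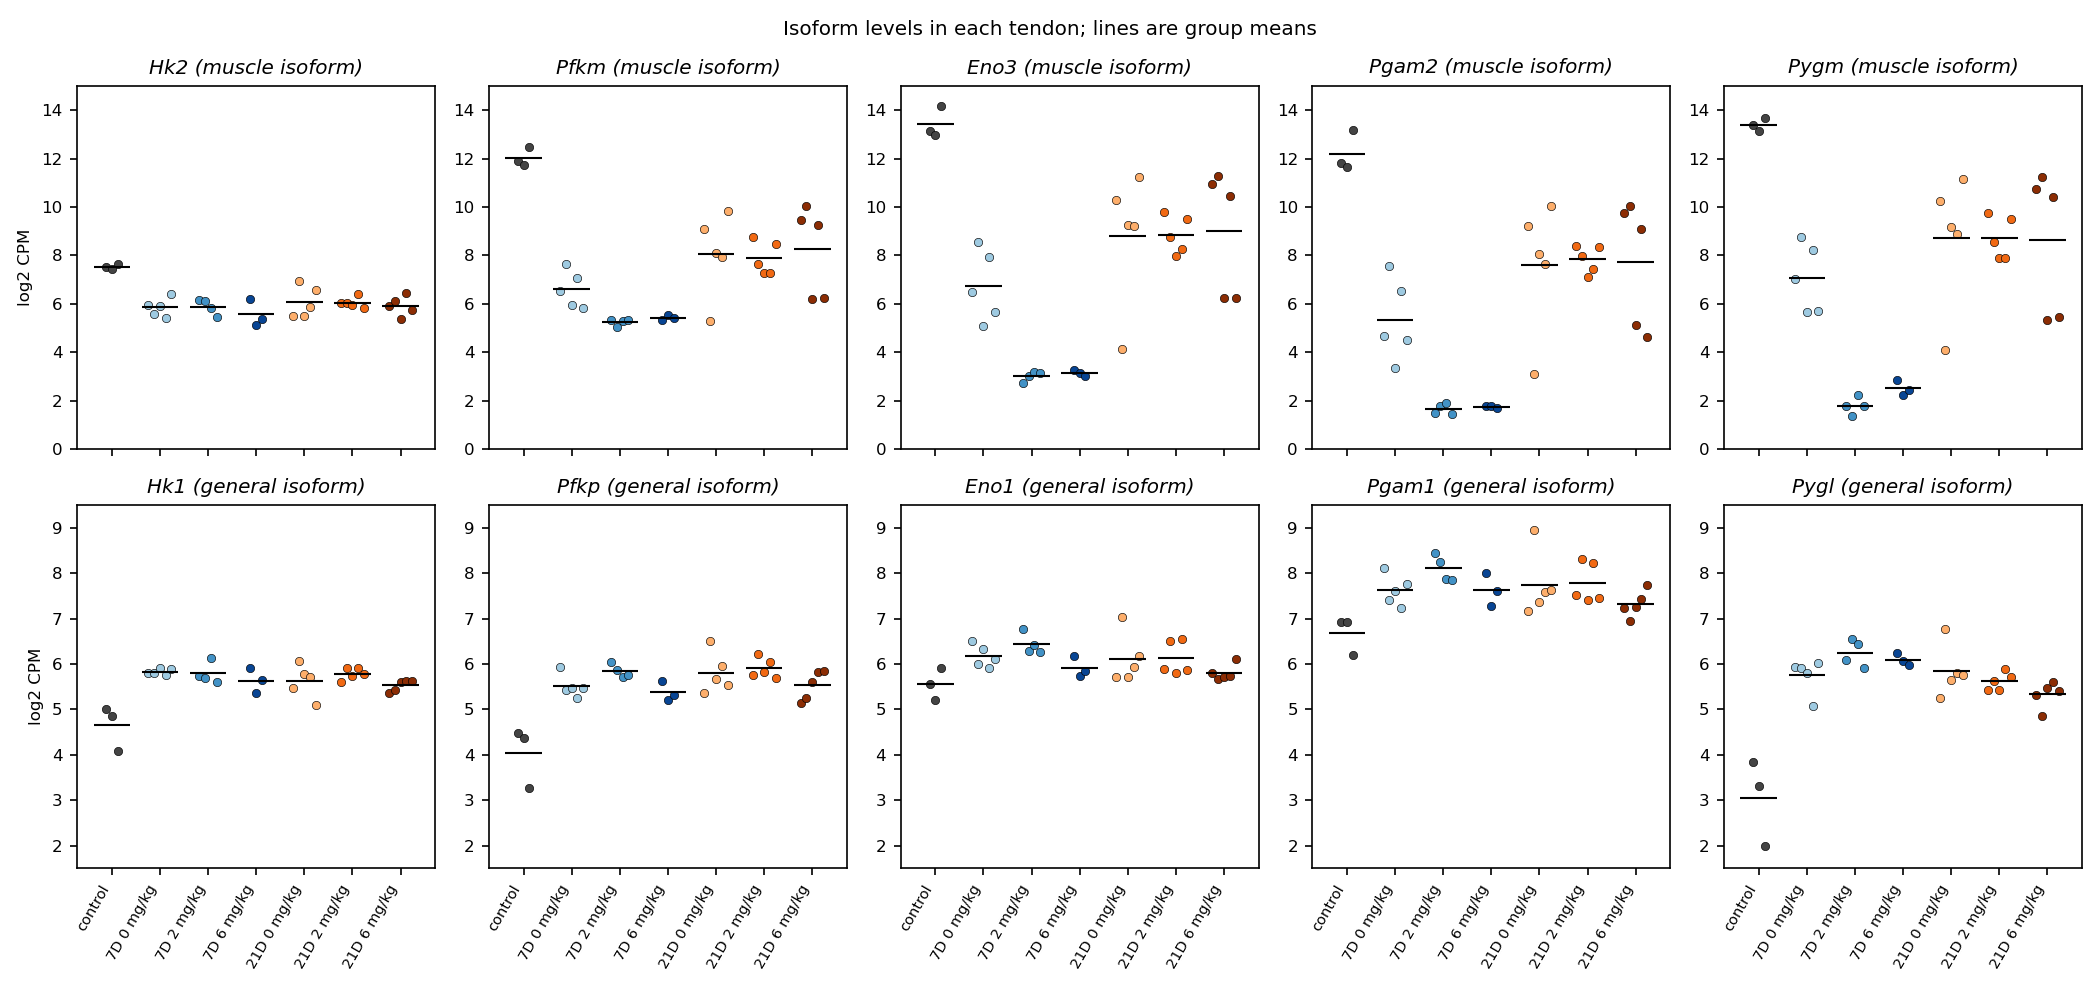
Level of each isoform in each of the 30 tendons as log2 CPM (vertical axis, a separate scale for each row) by group (horizontal axis), with 1 column of panels per pair, the muscle isoform above and the general isoform below; lines are group means. Every repaired tendon lies below the control tendons for the 5 muscle isoforms, and the general isoforms other than Eno1 lie above them.

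Pygm (ENSRNOG00000021090), muscle glycogen phosphorylase, lies on chromosome 1 (rn6). Pygm stood at 10698, 8947 and 13086 CPM in the 3 control tendons, at 130.0, 438, 51.3, 299.5 and 51.6 CPM in the 7D 0 mg/kg tendons, at 3.35, 2.52, 4.64 and 3.34 CPM in the 7D 2 mg/kg tendons and at 7.11, 4.62 and 5.41 CPM in the 7D 6 mg/kg tendons. The 21D tendons held 1216, 17.2, 586, 477 and 2302 CPM with 0 mg/kg, 871, 379.9, 235, 240.0 and 719.7 CPM with 2 mg/kg and 1699, 2401, 39.8, 1362 and 44.1 CPM with 6 mg/kg. The control tendons were highest, the tendons given compound at 7D were lowest, and the 21D 0 mg/kg group spanned the low value of replicate 2 and the much higher values of the other tendons. In edgeR's test Pygm differed from control by a log2 fold change of -5.81 (SE 1.11, adjusted p 5.62e-05) at 7D 0 mg/kg and of -3.57 (SE 1.03, adjusted p 0.00376) at 21D 0 mg/kg. At 7D 2 mg/kg the same difference was -11.63 (SE 1.55, adjusted p 4.4e-07), and the fewest counts of Pygm in a tendon of that group were 52. Group means at 7D were 1.78%, 0.0318% and 0.0524% of the control mean at 0, 2 and 6 mg/kg.

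Pygl (ENSRNOG00000006388), named for the liver form of glycogen phosphorylase and also made by leukocytes, lies on chromosome 6 and had the largest rises of the general isoforms, in each of the 6 repaired groups. Pygl lay at 14.2, 9.82 and 3.92 CPM in the control tendons, and at 33.8 to 65.2 (median 60.3), 60 to 93.2 (median 77.5) and 62.8 to 75.6 CPM (median 66.7) in the 7D groups at 0, 2 and 6 mg/kg. At 21D it lay at 38.1 to 109.5 (median 53.7), 42.8 to 58.9 (median 49.3) and 29.017 to 48.8 CPM (median 42.6) in the same order. Every repaired tendon lay above every control tendon, and the control tendon with the lowest Pygl, replicate 4, was the one with the highest muscle share. Compared to control, edgeR gave Pygl a log2 fold change of 2.55 (SE 0.34, adjusted p 3.28e-07) at 7D 0 mg/kg and 2.70 (SE 0.34, adjusted p 3.13e-07) at 21D 0 mg/kg.

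Hk2 (ENSRNOG00000006116), the hexokinase of insulin-responsive tissues such as muscle, lies on chromosome 4. Hk2 stood at 183, 175 and 203 CPM in the 3 control tendons, at 61.7, 47.3, 60.7, 42.6 and 84.7 CPM in the 7D 0 mg/kg tendons, at 72.2, 68.7, 56.6 and 43.6 CPM in the 7D 2 mg/kg tendons and at 73.2, 35.3 and 42.0 CPM in the 7D 6 mg/kg tendons. At 21D its values were 45.3, 122, 44.7, 58.0 and 94.1 CPM with 0 mg/kg, 66.2, 65.1, 61.2, 83.8 and 57.3 CPM with 2 mg/kg and 59.8, 69.6, 41.0, 86.9 and 53.7 CPM with 6 mg/kg. All repaired tendons lay below the control tendons, but by much less than for the other muscle isoforms: the group means were 26.8% to 39% of the control mean, and the ranges of the repaired groups overlapped. The log2 fold change of Hk2 against control was -1.65 (SE 0.29, adjusted p 1.92e-05) at 7D 0 mg/kg and -1.36 (SE 0.29, adjusted p 0.000258) at 21D 0 mg/kg in edgeR's test. Replicate 2 of 21D 0 mg/kg, which had the fewest muscle transcripts of its group, had the highest Hk2 of any repaired tendon.

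Hk1 (ENSRNOG00000046891), the hexokinase found in most cells, lies on chromosome 20. Hk1 lay at 31.9, 28.7 and 17.0 CPM in the control tendons, and at 53.9 to 59.7 (median 55.6), 48.8 to 70.1 (median 52.4) and 41.0 to 60.1 CPM (median 49.7) in the 7D groups at 0, 2 and 6 mg/kg. At 21D it lay at 34.2 to 67.0 (median 52.5), 48.5 to 60.6 (median 54.5) and 40.9 to 49.7 CPM (median 48.6) in the same order. All repaired tendons lay above the control tendons, and the repaired ranges overlapped except that 7D 0 mg/kg lay above 21D 6 mg/kg. How many of all genes separated those 2 groups was not counted. In edgeR's test Hk1 differed from control by a log2 fold change of 1.13 (SE 0.19, adjusted p 7.76e-06) at 7D 0 mg/kg and of 0.96 (SE 0.18, adjusted p 7.2e-05) at 21D 0 mg/kg.

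Pfkm (ENSRNOG00000057988), the muscle subunit of phosphofructokinase, lies on chromosome 7. Pfkm stood at 3851, 3392 and 5645 CPM in the 3 control tendons, at 93.2, 202, 62.1, 134 and 56.5 CPM in the 7D 0 mg/kg tendons, at 40.4, 33.3, 38.7 and 39.9 CPM in the 7D 2 mg/kg tendons and at 40.4, 46.0 and 42.8 CPM in the 7D 6 mg/kg tendons. The 21D tendons held 546, 39.2, 273, 248 and 904 CPM with 0 mg/kg, 434, 203, 156, 155 and 353 CPM with 2 mg/kg and 716, 1055, 74.0, 615 and 75.3 CPM with 6 mg/kg. It was below control in every repaired tendon, and where Pygm, Pgam2 and Eno3 were lowest it kept a low and even level. At 7D 2 mg/kg its mean of 38.1 ± 3.29 CPM was 0.886% of the control mean. The mean was 0.0685% of control for Eno3, 0.0584% for Pgam2 and 0.0318% for Pygm. The skeletal muscle markers together held 0.0384% of their control share of all counts. That share was not scaled by TMM, so it cannot be ranked against the percentages of the isoforms. Compared to control, edgeR gave Pfkm a log2 fold change of -5.29 (SE 0.77, adjusted p 1.34e-06) at 7D 0 mg/kg and -3.42 (SE 0.72, adjusted p 0.000207) at 21D 0 mg/kg.

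Pfkp (ENSRNOG00000017163), the platelet-type phosphofructokinase of many proliferating and immune cells, lies on chromosome 17. Pfkp lay at 22.4, 20.6 and 9.64 CPM in the control tendons, and at 38.2 to 61.4 (median 44.0), 52.5 to 65.6 (median 55.9) and 36.7 to 49.0 CPM (median 39.9) in the 7D groups at 0, 2 and 6 mg/kg. At 21D it lay at 40.9 to 91.5 (median 50.8), 51.9 to 74.1 (median 56.3) and 35.4 to 57.2 CPM (median 48.5) in the same order. All repaired tendons lay above the control tendons, and the highest value was that of replicate 2 of 21D 0 mg/kg. The 7D 6 mg/kg tendons lay below both 2 mg/kg groups, a separation that was not counted over all genes. The log2 fold change of Pfkp against control was 1.39 (SE 0.25, adjusted p 3.08e-05) at 7D 0 mg/kg and 1.73 (SE 0.26, adjusted p 3.24e-06) at 21D 0 mg/kg in edgeR's test.

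Pgam2 (ENSRNOG00000013532), the muscle phosphoglycerate mutase, lies on chromosome 14. Pgam2 stood at 3573, 3219 and 9177 CPM in the 3 control tendons, at 25.2, 191, 10.2, 91.9 and 22.8 CPM in the 7D 0 mg/kg tendons, at 2.73, 3.36, 3.72 and 2.63 CPM in the 7D 2 mg/kg tendons and at 3.41, 3.33 and 3.16 CPM in the 7D 6 mg/kg tendons. The 21D tendons held 589, 8.56, 270.0, 203 and 1059 CPM with 0 mg/kg, 337, 249, 136, 174 and 325 CPM with 2 mg/kg and 854, 1069.9, 34.9, 539 and 24.6 CPM with 6 mg/kg. The 7 tendons given compound at 7D lay within a narrow band, below the lowest tendon of 7D 0 mg/kg and of all 21D groups. That separation was not counted over all genes either. In edgeR's test Pgam2 differed from control by a log2 fold change of -6.29 (SE 1.13, adjusted p 2.42e-05) at 7D 0 mg/kg and of -3.64 (SE 1.02, adjusted p 0.00301) at 21D 0 mg/kg.

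Pgam1 (ENSRNOG00000050585), the mutase of most tissues, lies on chromosome 1. Pgam1 stood at 122, 122 and 73.0 CPM in the 3 control tendons, at 279, 171, 194, 149.7 and 218 CPM in the 7D 0 mg/kg tendons, at 348, 304, 235 and 232 CPM in the 7D 2 mg/kg tendons and at 256, 155 and 196 CPM in the 7D 6 mg/kg tendons. The 21D tendons held 144, 493, 164, 193 and 198 CPM with 0 mg/kg, 183, 318, 170.3, 297 and 176 CPM with 2 mg/kg and 150.3, 124, 152, 172 and 214 CPM with 6 mg/kg. Every repaired tendon lay above the control tendons, the nearest being replicate 2 of 21D 6 mg/kg, and replicate 2 of 21D 0 mg/kg was far above its group. Compared to control, edgeR gave Pgam1 a log2 fold change of 0.94 (SE 0.33, adjusted p 0.0137) at 7D 0 mg/kg and 1.17 (SE 0.33, adjusted p 0.0034) at 21D 0 mg/kg. Without control replicate 4 the Pgam1 call was lost at 7D 0 mg/kg (adjusted p 0.108), 7D 6 mg/kg (0.128) and 21D 2 mg/kg (0.0509) in edgeR's test, and without 7D 6 mg/kg replicate 1 it was lost in that group (0.108).

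Eno3 (ENSRNOG00000004078), beta enolase of muscle, lies on chromosome 10. Eno3 stood at 9006, 8101 and 18529 CPM in the 3 control tendons, at 90.3, 378, 34.1, 246 and 50.6 CPM in the 7D 0 mg/kg tendons, at 6.63, 8.05, 9.02 and 8.87 CPM in the 7D 2 mg/kg tendons and at 9.68, 8.71 and 8.09 CPM in the 7D 6 mg/kg tendons. At 21D its values were 1244, 17.5, 604, 597 and 2421 CPM with 0 mg/kg, 880.4, 438, 254, 308 and 726 CPM with 2 mg/kg and 1982, 2475, 75.2, 1396 and 74.9 CPM with 6 mg/kg. The order was that of Pygm and Pgam2, with the lowest values in the 7D 2 mg/kg and 7D 6 mg/kg groups. The log2 fold change of Eno3 against control was -6.22 (SE 1.09, adjusted p 1.78e-05) at 7D 0 mg/kg and -3.60 (SE 0.99, adjusted p 0.00252) at 21D 0 mg/kg in edgeR's test.

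Eno1 (ENSRNOG00000017895), alpha enolase, lies on chromosome 5 and had the smallest fold changes of the general isoforms. Eno1 stood at 47.3, 36.8 and 60.4 CPM in the 3 control tendons, at 90.9, 63.7, 80.9, 59.9 and 68.5 CPM in the 7D 0 mg/kg tendons, at 108, 78.1, 85.4 and 76.8 CPM in the 7D 2 mg/kg tendons and at 71.9, 53.4 and 57.2 CPM in the 7D 6 mg/kg tendons. At 21D its values were 52.6, 131, 52.1, 61.1 and 72.1 CPM with 0 mg/kg, 59.5, 90.4, 55.5, 94.1 and 57.9 CPM with 2 mg/kg and 55.3, 51.2, 52.6, 53.1 and 68.8 CPM with 6 mg/kg. The control and repaired tendons overlapped. In edgeR's test Eno1 differed from control by a log2 fold change of 0.60 (SE 0.25, adjusted p 0.0371) at 7D 0 mg/kg and of 0.62 (SE 0.25, adjusted p 0.0345) at 21D 0 mg/kg. The call at 7D 0 mg/kg was lost without control replicate 2 (adjusted p 0.114), control replicate 3 (0.147), replicate 1 of the group (0.0866) or replicate 3 (0.0649). At 21D 0 mg/kg it was lost without control replicate 2 (0.105), control replicate 3 (0.136) or replicate 2 of the group (0.192), and at 21D 2 mg/kg without control replicate 2 (0.146), control replicate 3 (0.162), replicate 2 (0.11) or replicate 4 (0.121). RefSeq lists 30 pseudogenes named for Eno1 and 13 named for Pgam1, and whether reads were split with such copies was not tested, so both levels are uncertain.

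**Figure D2:**
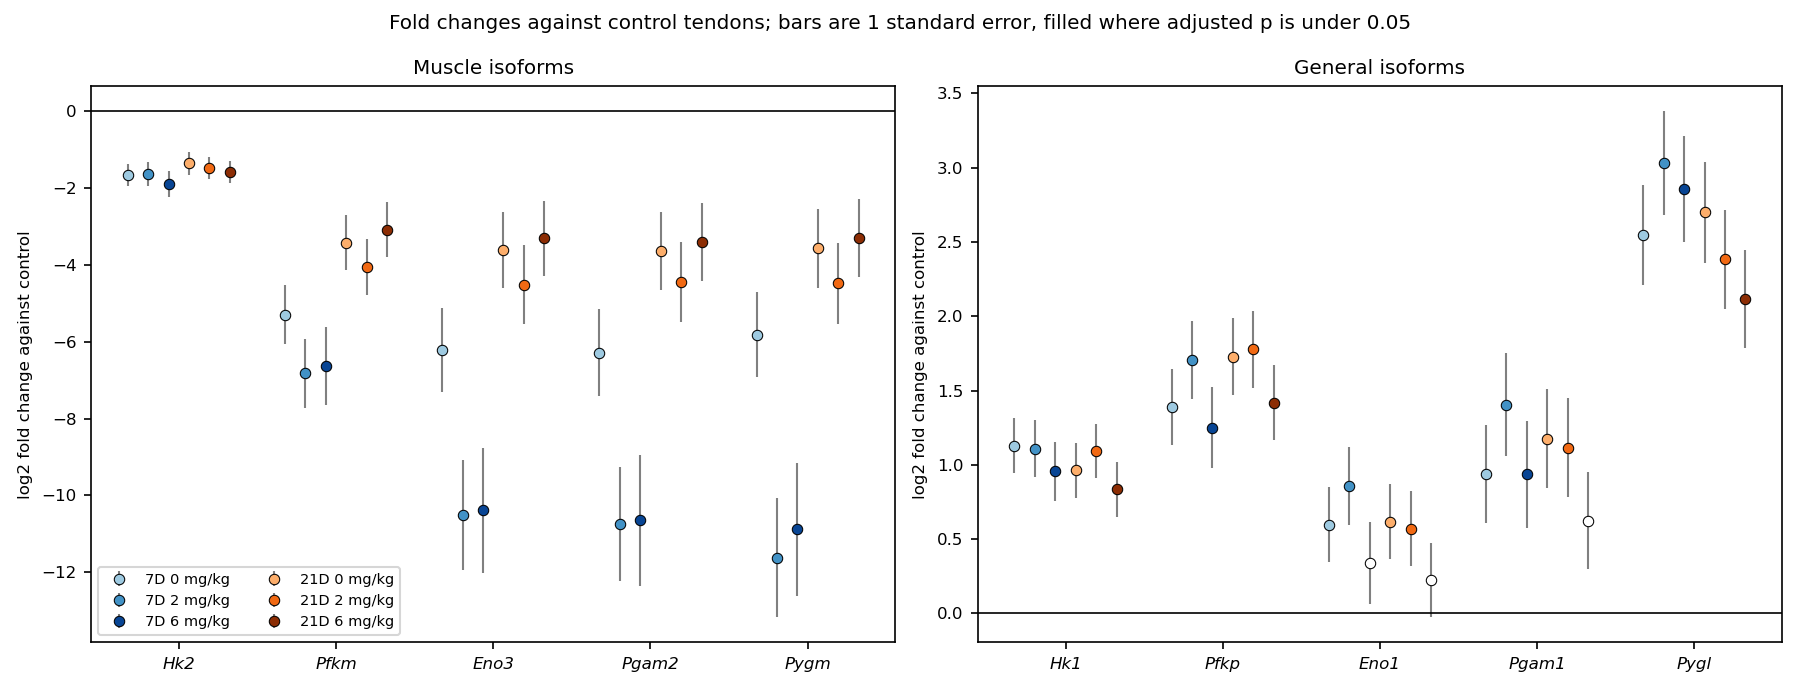
Log2 fold change against control (vertical axis, separate scales for muscle and general isoforms) for each isoform (horizontal axis) in the 6 repaired groups; bars are 1 standard error and open symbols did not pass the adjusted p threshold of 0.05. The muscle isoforms other than Hk2 reach their lowest values in the 7D 2 mg/kg and 7D 6 mg/kg groups, and 3 general isoform values are open.

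Ordered by group mean, Pfkm, Eno3, Pgam2 and Pygm had 1 common order, which was 7D 2 mg/kg, 7D 6 mg/kg, 7D 0 mg/kg, 21D 2 mg/kg, 21D 0 mg/kg, 21D 6 mg/kg and control from lowest to highest. For these 4 genes the ranges of 7D 2 mg/kg and 7D 6 mg/kg overlapped. So did the range of 7D 0 mg/kg with that of 21D 2 mg/kg, and those of the 21D groups. In contrast, 7D 6 mg/kg and 7D 0 mg/kg did not overlap and neither did 21D 6 mg/kg and control. Such separations between single groups were not counted over all genes, so they have no background.

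The balance within each pair was measured per tendon as the log2 ratio of the muscle to the general isoform, which is read only as a change between groups because gene lengths were not taken into account. Every pair had a lower ratio in all 27 repaired tendons than in any control tendon. Ratios of other gene pairs were not computed, so this has no background. The mean log2 ratio of Pygm to Pygl was 10.35 ± 1.16 (SD, n = 3) in control tendons, 1.33 ± 1.63 (n = 5) at 7D 0 mg/kg and 2.88 ± 3.25 (n = 5) at 21D 0 mg/kg. The differences from control at 7D 0 mg/kg were -9.02 for glycogen phosphorylase, -7.82 for phosphoglycerate mutase, -7.29 for enolase, -6.89 for phosphofructokinase and -2.87 for hexokinase, with p = 0.0357 for each pair in a two-sided exact permutation test, the smallest p that 3 against 5 tendons allow. At 21D 0 mg/kg the differences were -7.47, -5.64, -5.16, -5.75 and -2.46 in the same order, again with the smallest possible p. These p-values, 25 over the 5 comparisons in which ratios were tested, were not adjusted. The difference of the hexokinase pair was the smallest of the 5 at both times.

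**Figure D3:**
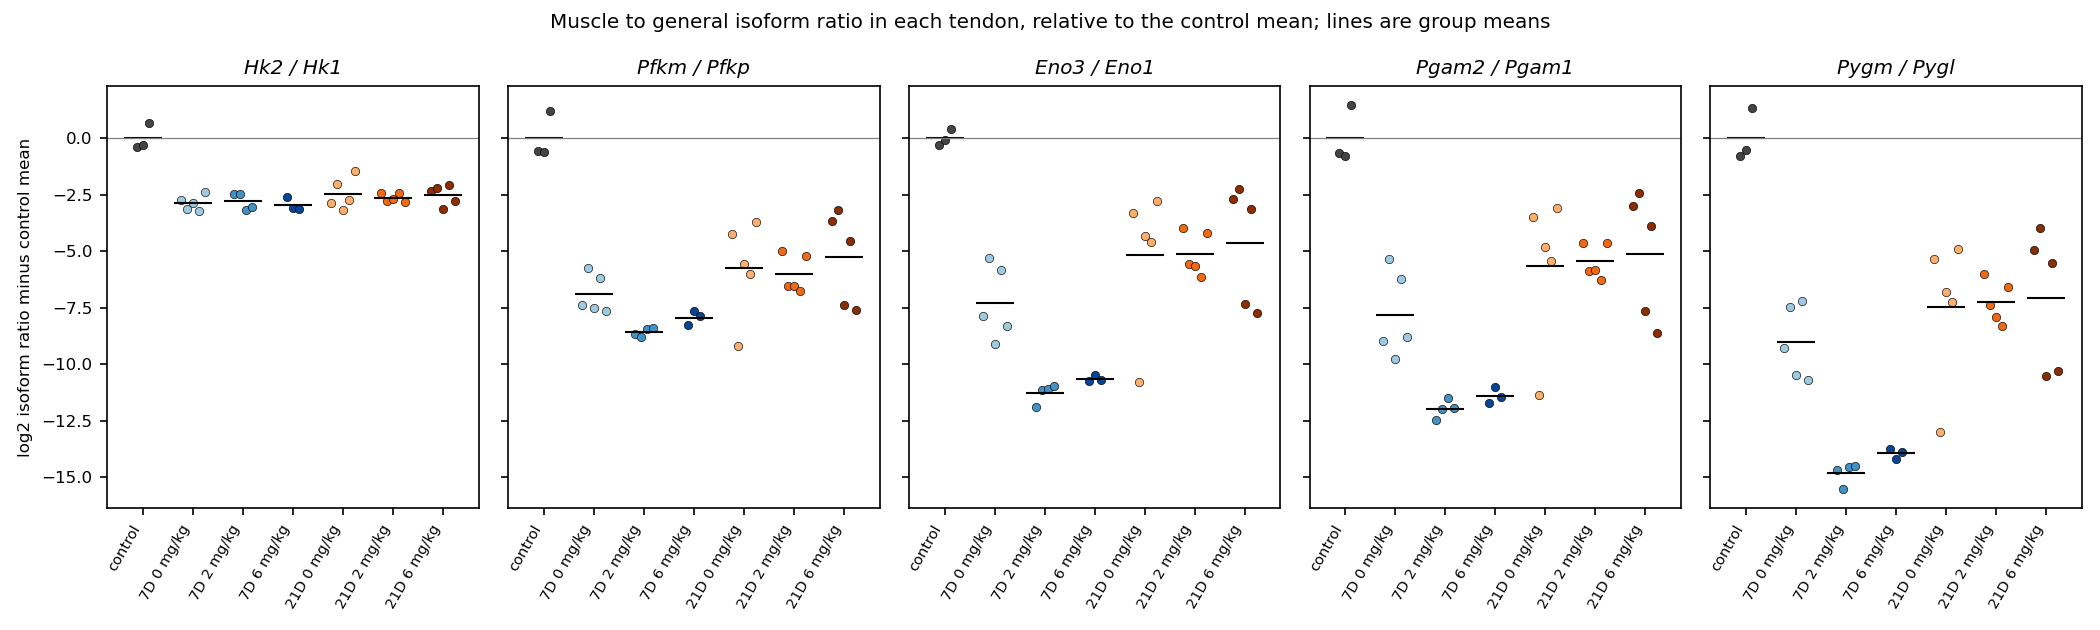
Log2 ratio of the muscle to the general isoform in each tendon, minus the control mean of the same pair (vertical axis), by group (horizontal axis), with 1 panel per pair; lines are group means. The control tendons lie near 0 and every repaired tendon lies below them, by less for Hk2 to Hk1 than for the other pairs.

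A further 3 isoforms of the same enzymes were tested, and all 3 rose in each of the 6 repaired groups. Hk3, the hexokinase of myeloid cells, had a log2 fold change of 5.77 (SE 1.07, adjusted p 3.76e-05) at 7D 0 mg/kg, from 0.917 ± 0.678 CPM in control tendons to 51.9 ± 21.4 CPM. Pfkl, the liver-type phosphofructokinase, changed by 1.46 (SE 0.29, adjusted p 8.45e-05) and Pygb, the brain form of glycogen phosphorylase, by 1.29 (SE 0.20, adjusted p 2.59e-06). Among the other genes of glycolysis, 22 of 27 listed were tested at 7D 0 mg/kg, 18 fell and 3 rose, with a median log2 fold change of -2.66 against 0.05 over all genes. The largest falls were those of Fbp2, muscle fructose bisphosphatase (-7.04, SE 1.18, adjusted p 1.01e-05), Pfkfb1, a kinase that sets the activator of phosphofructokinase (-5.15, SE 0.78, adjusted p 2.38e-06), and Slc2a4, the insulin-responsive glucose transporter GLUT4 (-5.13, SE 0.91, adjusted p 2.11e-05). The rises were those of Slc2a1, the glucose transporter GLUT1 (2.68, SE 0.82, adjusted p 0.00549), Pdk3, a pyruvate dehydrogenase kinase (1.88, SE 0.21, adjusted p 3.2e-08), and Aldoc, an aldolase (0.80, SE 0.28, adjusted p 0.012). Among the other genes of glycogen metabolism, 19 of 22 were tested, 15 fell and 2 rose, with a median of -2.65. Ppp1r3a, which targets a phosphatase to muscle glycogen (-5.96, SE 1.04, adjusted p 1.76e-05), Phkg1, the catalytic subunit of muscle phosphorylase kinase (-5.46, SE 0.80, adjusted p 1.52e-06), and Phka1, its muscle regulatory subunit (-4.77, SE 0.67, adjusted p 8.56e-07), fell most, whereas Pgm2 (1.05, SE 0.12, adjusted p 4.28e-08) and Ppp1r3b, the liver targeting subunit (0.81, SE 0.37, adjusted p 0.0499), rose. In the other 5 repaired groups 16 or 17 glycolysis genes and 16 glycogen genes fell, and 1 to 3 and 1 or 2 rose. All 23 skeletal muscle markers were lower and all 12 leukocyte markers higher at 7D 0 mg/kg, and the part of either in these counts was not tested.

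Comparing 21D to 7D at the same dose asked how far the isoforms had moved between both times. With 2 mg/kg 4 of 10 genes rose, where 7.09% of all genes were higher and 5.98% lower: Pygm by 7.15 (SE 1.28, adjusted p 0.000625), Pgam2 by 6.29 (SE 1.22, adjusted p 0.00125), Eno3 by 6.00 (SE 1.16, adjusted p 0.00117) and Pfkm by 2.77 (SE 0.72, adjusted p 0.0116) on the log2 scale. With 6 mg/kg the same 4 genes rose, where 8.54% of all genes were higher and 4.55% lower, with log2 fold changes of 7.59 (adjusted p 0.00169) for Pygm, 7.25 (0.00212) for Pgam2, 7.09 (0.00172) for Eno3 and 3.56 (0.00663) for Pfkm. Hk2 and the 5 general isoforms passed the test in neither dose group, and the log2 fold change of Hk2 was 0.14 (SE 0.27, adjusted p 0.77) with 2 mg/kg. When the fit held just both groups of a comparison, Pfkm at 6 mg/kg did not pass (adjusted p 0.0555) and Pygl was lower at both doses, with -0.66 on the log2 scale at 2 mg/kg (adjusted p 0.0181) and -0.73 with 6 mg/kg (0.0295). All 23 skeletal muscle markers were higher at 21D in both, with medians of 8.57 and 9.53 log2 units. Of 5 adipocyte markers 5 were lower with 2 mg/kg and 4 with 6 mg/kg (medians -3.84 and -2.78), and of 5 neutrophil markers 1 and 3 were. The part of these lists in the rise of the 4 genes was not tested. Of the other glycogen genes 2 of 19 rose with 2 mg/kg and 12 with 6 mg/kg, and of the other glycolysis genes 0 of 22 and 4.

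With 0 mg/kg none of the 10 genes differed between 21D and 7D in edgeR's test, where 2.88% of all genes were higher and 2.47% lower. Pfkm (1.88, SE 0.64, adjusted p 0.0763), Eno3 (2.61, SE 0.89, adjusted p 0.0784), Pgam2 (2.64, SE 0.92, adjusted p 0.0846) and Pygm (2.24, SE 0.92, adjusted p 0.134) had an unadjusted p under 0.05, and DESeq2 called 3 of them where limma-trend called none. Of the 23 skeletal muscle markers 2 were higher after adjustment. All 23 had an unadjusted p under 0.05 in edgeR's test, with a median log2 fold change of 2.58. The 21D 0 mg/kg group held replicate 2, which lay below every 7D 0 mg/kg tendon in all 4 genes. Without it these 4 genes passed, with log2 fold changes of 2.17 for Pfkm (adjusted p 0.0206), 2.93 for Eno3 (0.022), 2.96 for Pgam2 (0.0268) and 2.56 for Pygm (0.0479), and without 7D 0 mg/kg replicate 2 Pgam2 alone passed (3.51, adjusted p 0.0467). The isoform ratios overlapped between 7D 0 mg/kg and 21D 0 mg/kg in every pair, with exact permutation p from 0.222 to 0.381. At 2 and 6 mg/kg the ratios were not tested between both times. There the mean log2 ratio of Pygm to Pygl was higher at 21D by 7.57 and 6.88, and that of Hk2 to Hk1 by 0.17 and 0.45. At both doses the ratios of both times overlapped for the hexokinase pair only, which has no background.

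Within the 7D tendons, the doses differed in 3 muscle isoforms. Across the 3 doses, Pygm (adjusted p 0.00254), Eno3 (0.0137) and Pgam2 (0.0144) passed edgeR's F-test, as did 2.05% of all genes. At 2 mg/kg compared to 0 mg/kg the same 3 genes were lower, where 1.45% of all genes were lower and 0.908% higher: Pygm by -5.81 (SE 1.20, adjusted p 0.00772), Pgam2 by -4.45 (SE 1.12, adjusted p 0.0309) and Eno3 by -4.30 (SE 1.07, adjusted p 0.0278). Pfkm changed by -1.53 (SE 0.68, adjusted p 0.271), Hk2 by 0.02 (SE 0.27, adjusted p 0.98), and no general isoform passed. In limma-trend Eno3 and Pgam2 passed neither at 2 mg/kg (adjusted p 0.077 and 0.0869) nor across doses (0.115 and 0.129). With the replicate number as a block they did not pass at 2 mg/kg (0.0618 and 0.0752), nor did Pgam2 across doses (0.0518). Among the other glycogen genes Ppp1r3a alone passed, at both doses. At 6 mg/kg compared to 0 mg/kg no isoform passed in edgeR's test, where 0.39% of all genes were lower and 0% higher, although the log2 fold changes of Pygm, Pgam2 and Eno3 were -5.08, -4.37 and -4.18, near those at 2 mg/kg. Those 3 genes had an unadjusted p under 0.05 there and passed in DESeq2, and limma-trend called none. Both doses were compared with the same 5 tendons of 7D 0 mg/kg. The 7 tendons given compound at 7D lay below all 5 of them for Pygm, Pgam2, Eno3 and Pfkm. The share of all genes that separated in this way was not counted, so this has no background. The Eno3 and Pgam2 calls at 2 mg/kg were lost without 7D 0 mg/kg replicate 2 (adjusted p 0.0752 and 0.0947) or replicate 4 (0.0613 and 0.0619), and without any 1 of the 4 tendons of 7D 2 mg/kg (0.0654 to 0.0947 and 0.0679 to 0.11); without 7D 0 mg/kg replicate 2 they were also lost across doses (0.0557 and 0.0738). Of the 23 skeletal muscle markers, 19 fell at 2 mg/kg and 17 did so at 6 mg/kg, with medians of -7.09 and -6.57, and their shares did not overlap those of 7D 0 mg/kg; their part in the dose difference was not tested.

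The isoform ratios differed between the 7D doses in 4 of 5 pairs by unadjusted p, the phosphofructokinase pair included. Pfkm itself did not pass after adjustment. Its unadjusted p in edgeR's test was 0.0339 at 2 mg/kg and 0.0843 at 6 mg/kg. Ratios of other gene pairs were not computed as a background. Compared to 0 mg/kg, the log2 ratio at 2 mg/kg differed by -5.79 for glycogen phosphorylase, -4.15 for phosphoglycerate mutase, -3.99 for enolase and -1.69 for phosphofructokinase, with an exact permutation p of 0.0159 for each, the smallest that 4 against 5 tendons allow. The hexokinase pair differed by 0.07 (exact permutation p = 0.778). At 6 mg/kg the differences were -4.91, -3.58, -3.35 and -1.05 in the same order, each at the smallest p of 0.0357, and -0.08 for hexokinase (exact permutation p = 0.75).

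At 21D no isoform differed between doses in edgeR's test, as was so for 0% of all genes in both pairs of doses and across doses. At 2 mg/kg no isoform had an unadjusted p under 0.05, and at 6 mg/kg 1 did, Pygl with a log2 fold change of -0.58 (SE 0.26, adjusted p 0.759); DESeq2 and limma-trend called none. The log2 fold change of Pygm was -0.91 (SE 0.88, adjusted p 0.822) at 2 mg/kg and 0.27 (SE 0.88, adjusted p 0.971) at 6 mg/kg. The test of whether the dose effect differed between 7D and 21D called no isoform, where 0.39% of all genes were called, with the smallest adjusted p for Pygm (0.144) and an unadjusted p under 0.05 for 4 of 10 genes. DESeq2 called Pygm alone (adjusted p 0.009) and limma-trend none. Of the 23 skeletal muscle markers, 17 passed that test in edgeR.

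Tendons of 1 group still differed widely, and those differences were shared. After subtraction of the group means, the log2 CPM of Pfkm, Eno3, Pgam2 and Pygm followed the summed skeletal muscle markers over the 30 tendons with Pearson r of 0.978, 0.993, 0.976 and 0.986 and Spearman rho of 0.961, 0.969, 0.923 and 0.947. Hk2 did not share this (r = -0.20, rho = -0.14), and the general isoforms had r from -0.53 to -0.64. All these values share the same libraries and size factors, so they are given as a description. Without replicate 2 of 21D 0 mg/kg, an exclusion chosen after seeing the data, r stayed at 0.967 to 0.991 for the 4 muscle isoforms, was 0.20 for Hk2, and was -0.18 to -0.42 for the general isoforms.

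Within groups r with the leukocyte markers was 0.872 for Pgam1, 0.857 for Pfkp, 0.796 for Pygl, 0.62 for Hk1 and 0.589 for Eno1. Without replicate 2 of 21D 0 mg/kg it was 0.835, 0.813, 0.732, 0.529 and 0.416. Hk2 had 0.472 with that list, and 0.311 without that tendon. For the general isoforms r was -0.38 (Eno1) to 0.564 (Hk1) with the tendon fibroblast markers. It was -0.22 (Eno1) to 0.471 (Pygl) with the red cell markers and -0.68 (Pfkp) to -0.10 (Eno1) with the endothelial markers. The r of all other genes with these lists was not computed, so these values have no background. Eno1, Pgam1 and Hk2 had r of 0.90, 0.752 and 0.75 with a list of 10 hypoxia-responsive genes that holds no glycolysis gene. Without replicate 2 of 21D 0 mg/kg these were 0.829, 0.57 and 0.657. The other general isoforms had r of 0.12 (Hk1) to 0.42 (Pfkp) with that list. Hk2 moved within groups with Eno1 (r = 0.648) and Pgam1 (r = 0.629), while its r with the other muscle isoforms was small (-0.10 to -0.16). These r are not given without replicate 2 of 21D 0 mg/kg. Without that tendon, r of Hk2 with the skeletal muscle markers changed from -0.20 to 0.20, so the sign is uncertain.

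**Figure D4:**
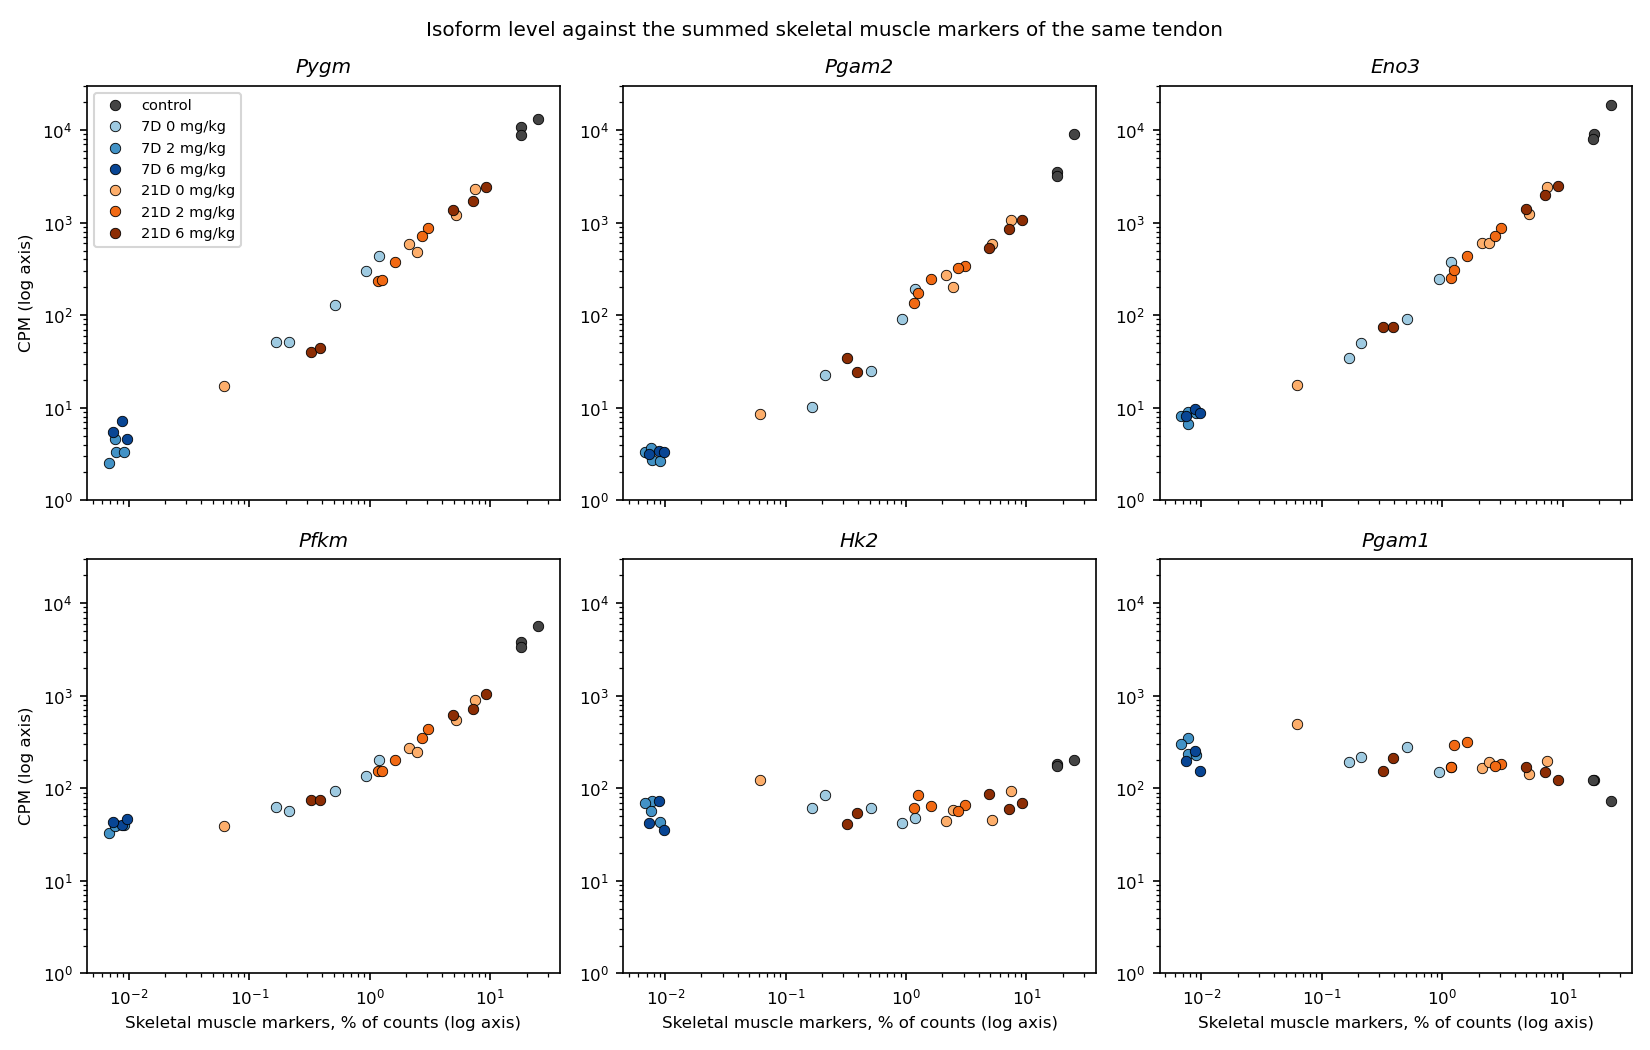
Level of 6 isoforms in CPM (vertical axis, log scale) against the share of all counts held by the 23 skeletal muscle markers (horizontal axis, log scale) of the same tendon, coloured by group. Pygm, Pgam2 and Eno3 run along a line down to the lowest shares, and Pfkm levels off at 33.3 to 46.0 CPM in the 7D 2 mg/kg and 7D 6 mg/kg tendons. Hk2 and Pgam1 follow no such rising line. Their log2 CPM had Pearson r of 0.46 and -0.62 with the summed markers over the 30 tendons.

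The genes most like each isoform over the 30 tendons, by Pearson r of log2 CPM, were as follows. Eno3 was closest to Tnnt3 (r = 0.997), fast skeletal troponin T, Pygm to Hrc (r = 0.995), a calcium-binding protein of the sarcoplasmic reticulum, Pgam2 to Sh3bgr (r = 0.994) and Pfkm to Tpm1 (r = 0.994), a tropomyosin. After subtraction of group means the closest were Ldb3 (r = 0.993) for Eno3 and Ldb3 (r = 0.990) for Pygm, both the same gene of the muscle Z-disc, Tnni2 (r = 0.984) for Pgam2 and Tmem38a (r = 0.990) for Pfkm. Hk2 was closest to Psmd2 (r = 0.916), a proteasome subunit, and within groups to Slc47a1 (r = 0.844). Pgam1 was closest to Ndrg1 (r = 0.950) and Pfkp to Msn (r = 0.976), the membrane-cytoskeleton linker moesin. Pygl was closest to Arhgap45 (r = 0.960), Hk1 to Gnai2 (r = 0.959) and Eno1 to Olr1 (r = 0.902). These values share libraries and groups and are descriptions only.

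The 250 bases before the annotated start of Pgam2, Pygm and Pgam1 are shown as examples. They are taken from RefSeq on the GRCr8 assembly, which is not the rn6 build of the counts. Capitals mark matches on either strand to CAGCTG, one form of the E-box that myogenic factors bind, and to ACGTG, the core of the hypoxia response element; CACGT is ACGTG on the other strand. The windows are chr14:84897875-84898124 (minus strand), chr1:213119555-213119804 (plus strand) and chr1:250672902-250673151 (plus strand), each written 5′ to 3′ along the gene.
Pgam2: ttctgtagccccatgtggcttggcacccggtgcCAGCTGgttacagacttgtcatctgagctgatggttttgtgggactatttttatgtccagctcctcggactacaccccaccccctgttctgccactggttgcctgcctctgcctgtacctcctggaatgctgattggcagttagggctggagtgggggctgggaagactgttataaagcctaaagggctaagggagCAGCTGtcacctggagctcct
Pygm: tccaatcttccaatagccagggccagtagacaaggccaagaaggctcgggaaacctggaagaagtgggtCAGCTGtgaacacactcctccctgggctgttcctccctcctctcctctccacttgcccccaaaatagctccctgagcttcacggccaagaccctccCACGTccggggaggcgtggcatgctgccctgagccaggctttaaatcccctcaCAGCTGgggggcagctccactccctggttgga
Pgam1: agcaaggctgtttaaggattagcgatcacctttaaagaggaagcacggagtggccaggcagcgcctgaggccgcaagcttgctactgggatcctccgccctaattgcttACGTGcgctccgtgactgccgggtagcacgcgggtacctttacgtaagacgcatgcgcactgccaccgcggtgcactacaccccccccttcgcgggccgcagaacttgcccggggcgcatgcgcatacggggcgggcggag

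CAGCTG began 217 and 21 bases before the start of Pgam2 and 181 and 32 bases before that of Pygm. ACGTG began 85 bases before the start of Pygm and 141 bases before that of Pgam1. Eno3 moved with Pgam2 (r = 0.998 over the 30 tendons) as closely as Pygm did (r = 0.989) and had no match in its 250 bases. Its CAGCTG match began at the start itself. Pfkm (r = 0.963 with Pgam2) had no CAGCTG match. Hk2 had 1, and its r with Pgam2 was 0.514 over the 30 tendons and -0.15 within groups. Within groups r with Pgam2 was 0.990 for Eno3, 0.974 for Pygm and 0.966 for Pfkm. Whether the motifs bear on these levels was not tested. All 10 genes matched a window of 300 bases, with 50 bases after the start included, and Hk1 and Eno1 had a second window each. CAGCTG was found for 4 of 5 muscle isoforms (Hk2, Eno3, Pgam2 and Pygm) and 1 of 5 general isoforms (Pygl), and in 15.1% of all 33469 promoter windows. ACGTG was found for 2 of 5 muscle isoforms (Pfkm and Pygm) and 4 of 5 general isoforms (Hk1, Eno1, Pgam1 and Pygl), and in 19.3% of all windows. A gene was counted if any of its windows matched, whereas these shares are per window, so the units differ. For Hk1 and Eno1 the ACGTG match lay in the second window listed and not in the first. The MEF2 consensus, also searched on both strands, was found for none of the 10 genes and in 3.29% of all windows. The motifs do not overlap in the windows shown, and a match is a description of the letters and not of binding.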

How the data were processed

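RNA was measured by 50 base single-end sequencing of 30 tendons. Per the authors' methods, fastp did the trimming, and STAR did both the mapping to rn6 and the counting over exons of Ensembl genes; the strand setting and the versions of these tools are not given in the sources used here. The deposited values are raw counts per gene, 12405741 to 49909374 per library. The methods name samples removed after read quality analysis, which would leave 4 tendons at 7D 6 mg/kg, whereas the labels used here give 3. Groups followed the labels.

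Counts of genes whose group mean reached 3 CPM in 1 or more of the 7 groups (12558, with 566 removed) were scaled by TMM and fitted over all 30 tendons with edgeR 4.0.16 in R 4.3.3 (quasi-likelihood, Benjamini-Hochberg adjusted p threshold 0.05) in 13 comparisons of 2 groups and 3 F-tests. CPM are TMM-scaled, and log2 values used a prior count of 2. Isoform ratios were compared by exact two-sided permutation tests. Named genes were the 10 isoforms, the further isoforms, the largest changes of each pathway list and the genes most correlated with each isoform. The 10 isoforms and all lists were chosen with earlier results of these data known. Alternatives were other scalings, filters and groups in the fit, DESeq2 1.42.0, limma-trend (limma 3.58.1), a replicate block and leaving out each tendon. On simulated data for 7D 0 mg/kg against control, over 12179 genes, 190 of 200 genes changed 4-fold were called (95%). Of the calls there, 4.04% were unchanged genes. Only those 200 genes were changed, as many up as down, whereas in the real comparison 35.8% of all genes were higher and 35.6% lower. The simulation therefore gives no error rate for these data. Per the methods, RNA came from the right tendon of each rat, so each tendon stands for 1 animal. Listed genes missing from the table, such as Tpi1, Myh1 and Ttn, were not analysed here.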

Additional observations from a re-analysis of the deposited data

Results flagged for a closer look

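Of 50 sets of 4 or 5 tendons (10 isoforms in 5 groups), 4 held a tendon farther from its group than Dixon's 95% critical value, and chance marks about 1 in 20 such sets. Replicate 2 of 21D 0 mg/kg had the lowest Eno3 (17.5 CPM against 597 to 2421 in the other tendons) and the highest Pgam1 (493 CPM against 144 to 198), and it was also the tendon with the fewest muscle and most leukocyte marker counts of its group. Replicate 5 of 21D 6 mg/kg had the highest Eno1 of its group at 68.8 CPM, against 51.2 to 55.3 CPM. Replicate 4 of 7D 0 mg/kg had the lowest Pygl at 33.8 CPM, against 55.7 to 65.2 CPM. The causes were not tested.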

How the results depend on the processing

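Against control the muscle isoforms kept their direction in every alternative run, and the only muscle call lost was Pygm at 21D 6 mg/kg when the fit held just that group and control (adjusted p 0.052). Under that fit Eno1 was lost at 21D 0 mg/kg (0.144) and 21D 2 mg/kg (0.0597), Pgam1 was lost at 21D 0 mg/kg (0.0512) and gained at 21D 6 mg/kg (0.0395). RLE factors lost Eno1 at 21D 2 mg/kg (0.0612), and scaling by total counts gained Eno1 at 7D 6 mg/kg (0.00323) and 21D 6 mg/kg (0.00993) and Pgam1 at 21D 6 mg/kg (0.00805). At 0 mg/kg, 21D against 7D gave 0 isoforms in edgeR, 3 in DESeq2 and 0 to 4 with each tendon left out. At 7D, 6 against 0 mg/kg gave 0 in edgeR, 3 in DESeq2 and 1 in a fit of those groups alone, and 2 against 0 mg/kg gave 3 in edgeR, 1 in limma-trend and 1 to 3 with a tendon left out. Across doses at 7D the counts were 3 in edgeR, 1 in limma-trend, 4 in a fit of the 7D groups alone (Pfkm added, adjusted p 0.0321) and 1 to 3 with a tendon left out. The interaction gave 0 in edgeR and 1 in DESeq2. The cause of these differences was not tested. Ratios with a tendon left out were refitted as values only.

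Replicate numbers showed no clear pairing of the tendons. Deviations correlated over 0.1 in 29 of 76 same-numbered pairs (median 0.00685) and in 89 of 307 other pairs (median 0.00878). With the replicate block, 2 against 0 mg/kg at 7D gave 1 isoform, Pygm, and across doses at 7D 2, Pygm and Eno3.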

Other observations

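Other cell-type lists were compared between control and repaired tendons as well. Over all genes, 35.8% were higher and 35.6% lower at 7D 0 mg/kg, and 32.2% and 33.7% at 21D 0 mg/kg, and counts of a list near these shares, such as those of the hypoxia-responsive genes, say nothing particular about the list. At 7D 0 mg/kg all 12 leukocyte markers and 4 of 5 neutrophil markers were higher than in control tendons by edgeR, and at 21D 0 mg/kg 12 and 0 were. Of 7 tendon fibroblast markers 1 was higher and 4 lower at 7D, and 1 higher and 3 lower at 21D. Adipocyte markers were higher for 3 of 5 at 7D and 0 at 21D, endothelial markers for 2 of 4 and 0, and none of 4 red cell markers passed at either time. Of 9 hypoxia-responsive genes tested 3 were higher and 4 lower at both times, and of 23 skeletal muscle markers 23 were lower at 7D and 19 at 21D.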
